A study of Mus musculus with 3 samples.

Results

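Neurog3-positive endocrine progenitors are the rare epithelial cells in which the gut's hormone-producing lineage begins, and 138 of them were found among 39227 cells kept from 3 single-cell libraries of mouse small intestine. The members were chosen by their measured counts of 3 genes, and a cell counted as a progenitor when it carried 2 or more *Neurog3* UMIs and fewer than 5 UMIs of *Chga* and *Chgb* together. A UMI is a molecular tag that counts 1 captured transcript, and cells were kept when they had 500 or more detected genes and 20% or less of their UMIs from mitochondrial genes. The limit on *Chga* and *Chgb*, which encode granule proteins of mature endocrine cells, left out cells that already carry the endocrine granule genes.

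The 3 libraries hold EpCAM+ epithelial cells of C57BL/6 mice, sorted without CD45+ and Ter119+ blood cells, with 1 library per genotype. Wild-type (WT) cells were taken on day 21. The *LApc* library comes from *Lgr5-EGFP-IRES-CreERT2* mice with both *Apc* alleles floxed (*Apc* fl/fl) on day 29, and the *LApcL* library from the same line with floxed *Apc* and floxed *Lef1* (*Apc* fl/fl; *Lef1* fl/fl) on day 21. All 3 groups, WT included, received 2 doses of 2 mg tamoxifen at 7 to 8 weeks of age, and the mutant animals were taken when they met the criteria for euthanasia. The CreERT2 cassette is driven by the *Lgr5* locus, so recombination starts in *Lgr5*+ crypt stem cells and reaches a progenitor only by descent. Because each genotype is 1 library, genotype, animal, library and, for *LApc*, the day of collection cannot be told apart, and no test between genotypes was possible. All intervals below are 95% intervals that cover counting error only. Values for the 3 libraries are always given in the order WT, *LApc*, *LApcL*.

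NEUROG3 is a basic helix-loop-helix (bHLH) transcription factor that is switched on for a short time in crypt cells leaving the stem cell zone, and intestinal endocrine cells do not form without it. Its product starts a cascade in which NEUROD1, INSM1, NKX2-2, PAX4 and related factors follow. Cells on this route leave the cell cycle, present Notch ligand to their neighbours, and later start hormone and granule genes. Loss of *Apc* activates Wnt signalling in stem cells and starts adenomas, and *Lef1* encodes a DNA-binding partner of β-catenin that these adenomas express.

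The cascade starts at promoters that bHLH factors can bind through short E-box motifs, so the DNA upstream of *Neurog3* and of 3 of its downstream factors is shown. The sequences are RefSeq promoter windows of GRCm38.p6, trimmed to bases that no annotated exon covers, written 5′ to 3′ on the strand of the gene. Capitals mark the E-box hexamer CAGATG or its reverse complement CATCTG. *Neurog3* lies on the plus strand and its stretch is chr10:62132840-62133089. *Neurod1* lies on the minus strand at chr2:79456752-79456886, *Neurod2* on the minus strand at chr11:98329649-98329895, and *Nkx2-2* on the minus strand at chr2:147186456-147186652, a stretch inside an intron of the longer annotated *Nkx2-2* gene.
Neurog3 promoter: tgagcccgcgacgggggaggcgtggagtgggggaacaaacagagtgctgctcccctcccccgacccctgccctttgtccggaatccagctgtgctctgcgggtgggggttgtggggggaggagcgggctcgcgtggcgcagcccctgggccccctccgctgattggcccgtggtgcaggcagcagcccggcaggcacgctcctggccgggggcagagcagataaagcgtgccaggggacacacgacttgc
Neurod1 promoter: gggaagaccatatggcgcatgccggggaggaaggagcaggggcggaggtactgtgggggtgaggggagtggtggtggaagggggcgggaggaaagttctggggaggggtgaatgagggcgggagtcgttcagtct
Neurod2 promoter: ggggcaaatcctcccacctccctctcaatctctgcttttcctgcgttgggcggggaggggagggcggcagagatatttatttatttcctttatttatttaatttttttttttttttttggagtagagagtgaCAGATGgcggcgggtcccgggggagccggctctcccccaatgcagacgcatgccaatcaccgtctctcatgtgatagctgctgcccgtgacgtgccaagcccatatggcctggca
Nkx2-2 promoter: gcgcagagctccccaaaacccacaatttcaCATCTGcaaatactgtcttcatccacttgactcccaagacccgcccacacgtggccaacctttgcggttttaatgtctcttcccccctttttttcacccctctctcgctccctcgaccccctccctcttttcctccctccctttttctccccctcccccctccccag
The hexamer stands 118 bases before the RefSeq start of *Neurod2* and 220 bases before that of *Nkx2-2*, and these letters are not in the stretches of *Neurog3* and *Neurod1*. Over all 32851 windows of 250 bases, 14.4% held the hexamer on either strand. Of the 21 listed genes that were 2-fold or more higher in progenitors than in the other kept cells in all 3 libraries, 19 had a window and 3 of these held it, namely *Cbfa2t3*, *Neurod2* and *Nkx2-2*. The N-box CACNAG, a motif of HES-type repressors, was found in none of the 4 stretches and in 36.7% of all windows. The stretches of *Neurog3*, *Neurod1*, *Neurod2* and *Nkx2-2* are 250, 135, 247 and 197 bases long. A motif missing from a trimmed stretch is therefore not comparable with the share over full windows. A match of letters is a description and not evidence of binding.

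The WT, *LApc* and *LApcL* libraries yielded 39, 33 and 66 progenitors from 11391, 10864 and 16972 kept cells. The 138 members make up 0.352% of all kept cells. Their median depth was 10856, 5475 and 8000 UMIs per cell, against 9984, 6292 and 10478.5 UMIs over all kept cells of the library, and the members together carried 506586, 210093 and 573579 UMIs. The *Neurog3* count per member had a median of 4, 5 and 4 UMIs and a highest value of 19, 17 and 26. Just inside the limit, 23 members carried exactly 2 *Neurog3* UMIs, and just outside it, 72 cells with 1 *Neurog3* UMI met the *Chga* and *Chgb* limit. A further 53 cells (23, 9 and 21) had 2 or more *Neurog3* UMIs but 5 or more UMIs of *Chga* and *Chgb* and are not counted as progenitors. The members held 63.0%, 74.6% and 70.8% of all *Neurog3* UMIs of their library.

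*Neurog3* was rare in cells that should lack it. Among enterocyte-rich cells, which should lack the gene, 4 of 1249, 2 of 2651 and 3 of 883 carried any *Neurog3* UMI, which is 0.320%, 0.0754% and 0.340%. Scrublet scores marked 3, 8 and 11 members as possible doublets. Kept cells of different libraries shared 167 (WT and *LApc*), 280 (WT and *LApcL*) and 245 (*LApc* and *LApcL*) barcodes, and 3 members, 1 WT and 2 *LApcL* cells, carried barcodes shared between WT and *LApcL*.

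The label was checked against *Neurod1*, a direct successor of *Neurog3* in the cascade that the rule did not use. *Neurod1* UMIs were found in 15 of 39 WT progenitors (38.5%, 23.4 to 55.4), 16 of 33 *LApc* progenitors (48.5%, 30.8 to 66.5) and 33 of 66 *LApcL* progenitors (50%, 37.4 to 62.6). The other kept cells carried a *Neurod1* UMI in 4.90%, 5.60% and 2.96% of cells, and the enterocyte-rich cells in 1.60%, 1.47% and 1.13%. After thinning every cell to 3000 UMIs, which left out 0, 1 and 1 shallower progenitors and 0, 1072 and 141 other kept cells, the progenitor shares were 20.5%, 31.2% and 33.8%, against 2.24%, 3.10% and 1.71% in the other kept cells. *Insm1*, which encodes a zinc-finger repressor of the same cascade, was seen in 59.0%, 75.8% and 62.1% of progenitors and in 3.11%, 3.26% and 1.92% of the other cells. *Neurod1* and *Insm1* were therefore many times more frequent in the Neurog3-selected cells than in the remaining epithelium of the same library.

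**Figure D1:**
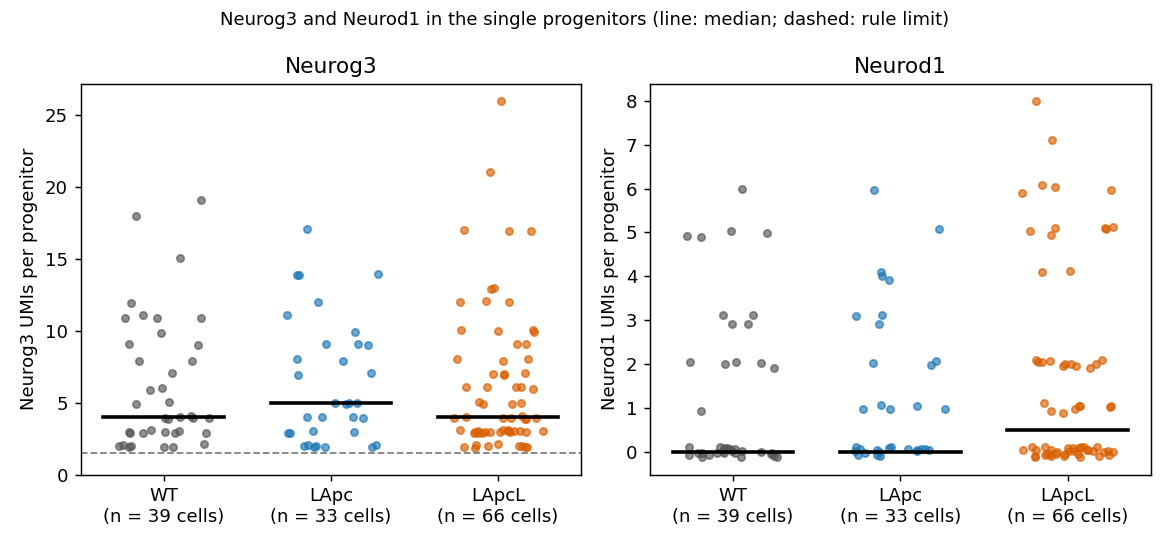
*Neurog3* (left) and *Neurod1* (right) UMIs in each progenitor of the WT (39 cells), *LApc* (33 cells) and *LApcL* (66 cells) libraries, with 1 point per cell, a line at the median and a dashed line just under the limit of 2 *Neurog3* UMIs. *Neurog3* reached 19, 17 and 26 UMIs, and the *Neurod1* points at 0 are the members in which *Neurod1* was not seen.

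Some members, 12 of 39 in WT, also carried many transcripts of another epithelial type. Genes of the goblet, Paneth or enterocyte lists made up 5% or more of the UMIs in 12 WT, 3 *LApc* and 1 *LApcL* progenitors. In WT, 9 of these were high in goblet genes (5.02% to 26.3% of UMIs) and 3 in Paneth genes (25.7% to 36.1%), and the *LApc* and *LApcL* cells were high in goblet genes. Of these 12, 3 and 1 cells, 1 in each library was marked as a possible doublet. The 3 WT cells high in Paneth genes held 31290, 43620 and 53358 UMIs, against a median of 10856 per WT member. They therefore weigh more than other members in every WT sum. These 3 cells dominated the Paneth sum, which was 86096 CPM over all WT members and 4250 CPM without the 12 cells. CPM here is the UMIs of a gene, summed over the cells of a class, for every 1000000 UMIs of that class. The other kept cells reached 5% of one of these lists in 44.1%, 35.7% and 10.9% of cells. Levels of single genes below include these 16 members unless stated otherwise. Results that rest on them are given also without them, a limit chosen after the data had been seen.

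**Figure D2:**
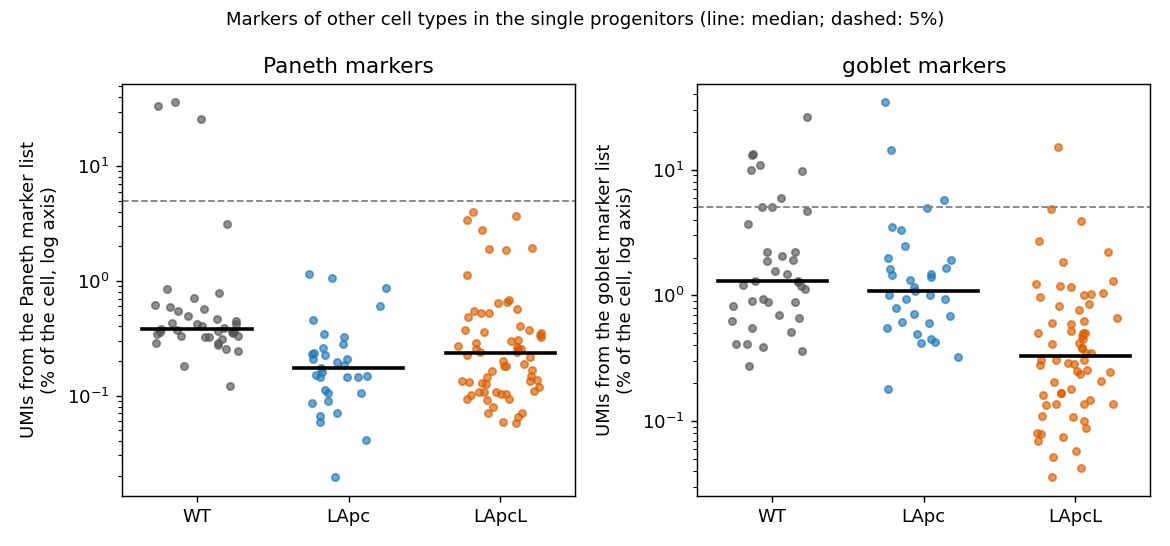
Share of each progenitor's UMIs that came from the 8 Paneth markers (left) and the 8 goblet markers (right), in percent on a log axis, with 1 point per cell, a line at the median and a dashed line at 5%. In WT, 3 cells lie above 25% in the Paneth panel, and 9 WT, 3 *LApc* and 1 *LApcL* cells lie above the dashed line in the goblet panel.

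Markers of cells outside the absorptive and secretory lineages were scarce. Of the 8 tuft cell markers, 7, 8 and 1 were at 0 UMIs in the progenitors, and the tuft sum was 3.95, 0 and 31.4 CPM. In *LApcL* the highest single member stood at 1839 CPM of the tuft list, against a median of 0. *Rgs13* (5 UMIs) and *Lrmp* (3 UMIs) each came from 1 *LApcL* cell. Of the 8 stromal markers, 8, 7 and 6 were at 0. The immune list summed to 411, 524 and 167 CPM, of which the antigen-presentation gene *Cd74*, also expressed by intestinal epithelium, gave 409, 499.8 and 166 CPM, and no other gene of the list reached the floor of the comparison below, in which *Cd74* was not called. The leukocyte gene *Ptprc* was at 0 in all 3 libraries.

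The targeted genes gave few counts in so few cells. *Apc* was covered by 5, 5 and 26 UMIs in the progenitors (9.87, 23.8 and 45.3 CPM) and *Lef1* by 0, 0 and 2 UMIs. In the other kept cells *Apc* stood at 16.8, 24.2 and 32.6 CPM and *Lef1* at 0.108, 4.15 and 3.03 CPM. *Lgr5*, the stem cell gene that carries the Cre cassette, had 6, 2 and 5 UMIs in the progenitors. Counts at the 3′ end of a transcript need not report on deleted exons, so these values do not check recombination.

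Counted against all kept cells, progenitors were a similarly small share of each library, with ratios whose counting intervals were wide. They made up 0.342% (0.244 to 0.468) of WT cells, 0.304% (0.209 to 0.426) of *LApc* cells and 0.389% (0.301 to 0.494) of *LApcL* cells. The log2 ratio of these shares was -0.17 (-0.89 to 0.53) for *LApc* over WT, 0.18 (-0.41 to 0.79) for *LApcL* over WT and 0.36 (-0.27 to 1.01) for *LApcL* over *LApc*, and each counting interval includes 0. Without the 16 members high in another type the shares were 0.237%, 0.276% and 0.383%, and the *LApcL* over WT ratio was 0.69 (0.02 to 1.40). With a limit of 1 *Neurog3* UMI the *LApcL* over *LApc* ratio was 0.52 (0.0023 to 1.06). These 2 intervals exclude 0.

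Counted within the endocrine lineage, progenitors took a larger part of the *LApcL* library. The lineage was counted as all cells with 2 or more *Neurog3* UMIs or 5 or more UMIs of *Chga* and *Chgb*, 569, 705 and 589 cells, or 5.00%, 6.49% and 3.47% of kept cells. Progenitors were 6.85% (4.92 to 9.25), 4.68% (3.24 to 6.51) and 11.2% (8.77 to 14.0) of it. The log2 ratio was 1.26 (0.64 to 1.91) for *LApcL* over *LApc*, 0.71 (0.12 to 1.32) for *LApcL* over WT and -0.55 (-1.26 to 0.16) for *LApc* over WT. The endocrine lineage itself was a smaller share of *LApcL* cells, with a log2 ratio of -0.53 (-0.69 to -0.36) to WT and -0.90 (-1.06 to -0.74) to *LApc*. A share of a sorted, dissociated sample cannot separate more progenitors from fewer mature cells.

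Most transcription factors of the endocrine cascade that could be compared were higher in the progenitors than in the other kept cells. Each was compared, within its library, with the other kept cells and with 507, 663 and 502 *Chga/Chgb*-high endocrine cells (5 or more *Chga* and *Chgb* UMIs and fewer than 2 *Neurog3* UMIs). A gene was called different when its summed CPM was 2-fold or more apart in the same direction in all 3 libraries, and genes were compared when their mean over the 3 libraries reached 50 CPM in either class. By this rule 70 of 2751 genes (2.54%) were higher and 41 (1.49%) lower in progenitors than in the other kept cells. Of the 29 listed factors, *Neurog3* not counted, 10 reached the floor and 9 were higher. Their median log2 ratio was 3.38, 3.41 and 3.74, against -0.08, 0.03 and -0.05 over all genes compared. A gene near 0 in the other cells could reach the floor only by being high in progenitors, so this count describes the list and does not test it.

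*Neurod1* stood at 96.7, 205 and 187 CPM in progenitors, 10.0, 21.2 and 6.39 CPM in the other kept cells and 187, 439 and 231 CPM in *Chga/Chgb*-high cells. Its log2 ratio over the other kept cells was 3.27 (2.83 to 3.68), 3.27 (2.80 to 3.71) and 4.87 (4.57 to 5.15). Its level was lower in progenitors than in *Chga/Chgb*-high cells in every library, by a log2 ratio of -0.95, -1.10 and -0.31, so *Neurod1* RNA was higher in the cells that already carry granule genes.

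*Neurod2* had the opposite order. This close relative of *Neurod1*, best known from neurons, reached 41.5, 109 and 68.0 CPM in progenitors against 0.338, 0.205 and 0.222 CPM in the other kept cells and 3.43, 2.26 and 2.36 CPM in *Chga/Chgb*-high cells. The log2 ratio of progenitors over *Chga/Chgb*-high cells was 3.59 (2.64 to 4.55), 5.60 (4.33 to 7.06) and 4.85 (3.82 to 6.01). Of the factors that were higher in progenitors, it had the largest ratio over the mature endocrine cells.

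*Nkx2-2* encodes a homeodomain factor that acts early in the endocrine lineage. It stood at 98.7, 176 and 115 CPM in progenitors, 2.27, 3.27 and 1.07 CPM in the other kept cells and 34.3, 58.8 and 29.8 CPM in *Chga/Chgb*-high cells. Its log2 ratios were 5.44 (4.98 to 5.88), 5.75 (5.21 to 6.25) and 6.75 (6.33 to 7.16) over the other kept cells and 1.52 (1.05 to 1.98), 1.58 (1.03 to 2.1) and 1.95 (1.5 to 2.39) over the *Chga/Chgb*-high cells. It was seen in 59.0, 51.5 and 51.5% of progenitors and 2.06, 1.69 and 0.964% of the other kept cells.

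*Insm1* reached 111, 214 and 136 CPM in progenitors and 4.22, 7.68 and 2.40 CPM in the other kept cells, a log2 ratio of 4.71, 4.8 and 5.83. *Chga/Chgb*-high cells had 76.9, 148 and 78.0 CPM, and the ratio of progenitors to them was 0.52, 0.54 and 0.80, short of 2-fold in each library. *Rcor2*, which encodes a corepressor of the LSD1 complex, stood at 25.7, 76.2 and 78.5 CPM against 0.869, 2.13 and 4.63 CPM in the other kept cells. *Tox3*, an HMG-box factor, stood at 80.9, 157 and 113 CPM, with log2 ratios of 2.38, 2.93 and 2.88 over the other kept cells and 1.27, 1.53 and 1.40 over *Chga/Chgb*-high cells. The pattern of *Rcor2* and *Tox3* was thus that of *Nkx2-2*, highest in the progenitors.

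*Sox4* was seen in nearly every progenitor. It encodes an HMG-box factor that acts upstream of or beside *Neurog3* in endocrine and tuft cell formation. Its level was 649, 1233 and 1128 CPM in progenitors, 57.7, 115 and 166 CPM in the other kept cells and 104, 251 and 275 CPM in *Chga/Chgb*-high cells. It was detected in 87.2, 93.9 and 95.5% of progenitors, and its log2 ratio was 3.49, 3.42 and 2.76 over the other kept cells and 2.64, 2.30 and 2.03 over *Chga/Chgb*-high cells. The lower ratio in *LApcL* goes with a higher level in the other *LApcL* cells.

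*Pax4*, which favours some hormone fates over others, did not reach the floor in the mean of the libraries. It stood at 19.7, 66.6 and 50.6 CPM in progenitors, 0.575, 0.696 and 0.523 CPM in the other kept cells and 8.07, 12.6 and 13.5 CPM in *Chga/Chgb*-high cells. Its log2 ratio over the other kept cells was 5.10, 6.58 and 6.60. *Isl1*, a LIM-homeodomain factor of several hormone cell types, stood at 43.4, 85.7 and 22.7 CPM in progenitors, 3.07, 3.40 and 3.40 on the log2 scale over the other kept cells but -1.10, -0.83 and -1.72 against *Chga/Chgb*-high cells. *Foxa2*, a forkhead factor of gut endoderm, was higher than in the other kept cells at 63.2, 105 and 45.3 CPM (log2 ratio 2.63, 3.40 and 1.84). Its relative *Foxa3* was the 1 compared factor that was not called, with log2 ratios of 0.43, 1.32 and 0.94.

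Factors known from maturing endocrine cells were low or missing. *Pax6* had 1.97, 0 and 1.74 CPM in progenitors against 56.5, 94.3 and 47.5 CPM in *Chga/Chgb*-high cells. *Etv1* had 0 UMIs in all members of all 3 libraries against 41.9, 66.2 and 42.3 CPM. *Fev* and *Hmgn3* stood at 5.92, 14.3 and 20.9 CPM and 5.92, 66.6 and 47.1 CPM against 56.0, 91.4 and 81.1 CPM and 85.4, 155 and 104 CPM. These 4 factors were 2-fold or more lower in progenitors than in *Chga/Chgb*-high cells in all 3 libraries, and 5 (*Neurod2*, *Sox4*, *Nkx2-2*, *Rcor2* and *Tox3*) were higher, of 15 compared. Over all genes in that comparison, 29 of 2817 (1.03%) were higher and 103 (3.66%) lower. A factor near 0 in 1 class could reach the floor only through the other, so these counts describe the list and do not test it.

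**Figure D3:**
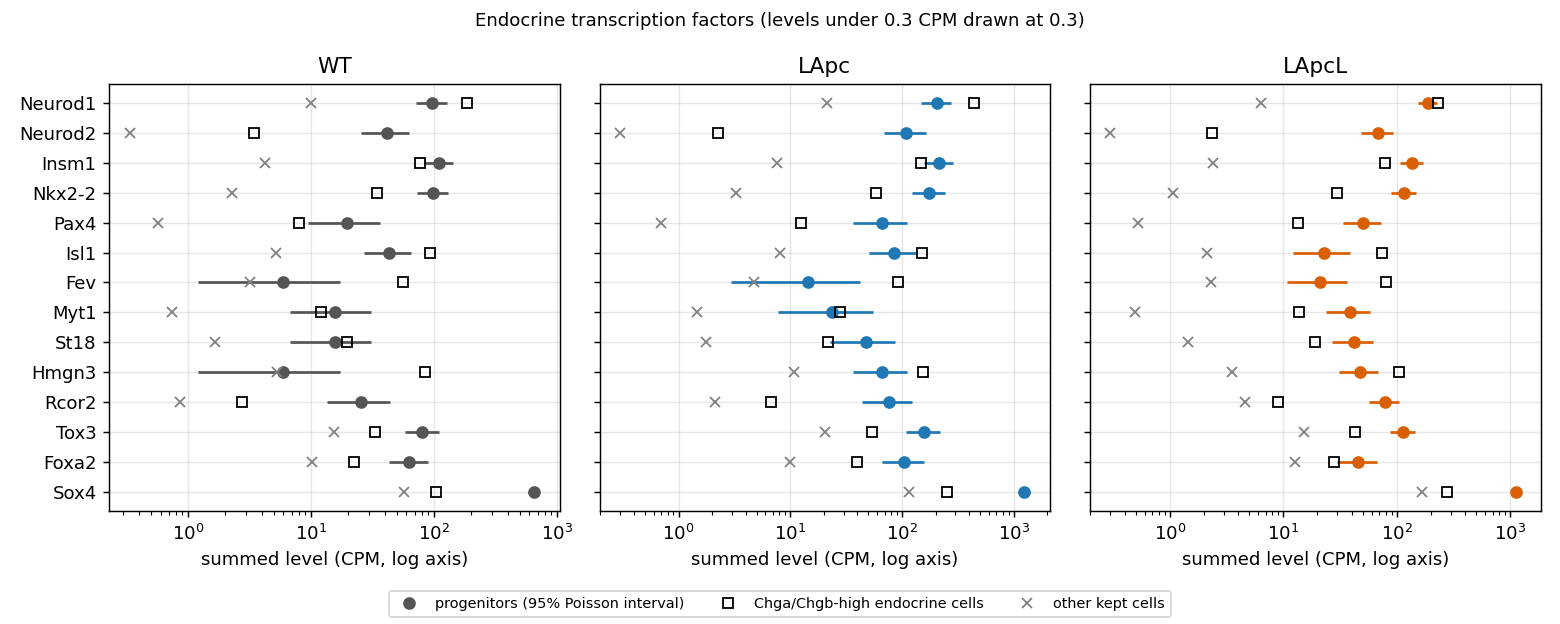
Summed level in CPM, on a log axis, of 14 endocrine transcription factors in progenitors, *Chga/Chgb*-high endocrine cells and other kept cells, with 1 panel per library and levels under 0.3 CPM drawn at 0.3. *Neurod2*, *Nkx2-2*, *Rcor2*, *Tox3* and *Sox4* lie highest in progenitors in each panel, whereas *Neurod1*, *Isl1*, *Fev* and *Hmgn3* lie highest in *Chga/Chgb*-high cells.

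Some listed factors had very low counts. *Rfx6*, a winged-helix factor of endocrine cells, stood at 23.7, 28.6 and 22.7 CPM, *St18* at 15.8, 47.6 and 41.8 CPM and *Myt1* at 15.8, 23.8 and 38.4 CPM in progenitors. *Lmx1a*, a factor of serotonin cells, stood at 0, 4.76 and 0 CPM against 17.9, 74.9 and 31.2 CPM in *Chga/Chgb*-high cells. *Bhlhe22* and *Nkx6-3* had no UMI in any of the 138 cells, at sums that allow few counts.

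Outside the lists, 15 genes were ranked by the lowest of their 3 ratios over the other kept cells, and *Slc39a2*, which encodes a zinc importer, stood first. It stood at 84.9, 124 and 94.1 CPM in progenitors and 0.460, 0.437 and 0.459 CPM in the other kept cells, a log2 ratio of 7.53 (6.94 to 8.11), 8.15 (7.34 to 8.94) and 7.68 (7.16 to 8.18), and was seen in 48.7, 54.5 and 40.9% of progenitors. It was also 5.63, 6.58 and 5.32 on the log2 scale over *Chga/Chgb*-high cells, so that it marked the progenitors against both the remaining epithelium and the mature endocrine cells. The neuronal tubulin gene *Tubb3* followed at 45.4, 114 and 244 CPM, with log2 ratios of 7.27, 6.90 and 7.39 over the other kept cells and 4.14, 4.77 and 3.33 over *Chga/Chgb*-high cells. A second tubulin gene, *Tubb2b*, stood at 84.9, 214 and 174 CPM, with ratios of 2.09, 2.78 and 1.99 and 1.43, 1.76 and 1.36.

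*Gfra3*, which encodes a co-receptor for a ligand of the GDNF family, stood at 152, 299.9 and 94.1 CPM against 4.56, 5.32 and 1.61 CPM (log2 ratio 5.06, 5.82 and 5.87). *Ffar2*, a receptor for short-chain fatty acids, stood at 73.0, 190.4 and 69.7 CPM (log2 ratio 1.89, 3.78 and 3.73), and the calcium channel gene *Cacna1a* at 61.2, 143 and 105 CPM (log2 ratio 3.02, 3.39 and 3.27). Genes of chromatin regulators were among the 15 named by the rule. *Smarcd2*, a subunit of SWI/SNF remodelling complexes, stood at 197, 309 and 299.9 CPM, 1.96, 2.57 and 2.35 over the other kept cells and 1.97, 2.68 and 2.19 over *Chga/Chgb*-high cells. *Kdm1a*, the histone demethylase LSD1 that works with RCOR and INSM1 proteins, stood at 77, 171 and 192 CPM (log2 ratio 1.27, 1.98 and 1.67).

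Further genes named by this rule were *Vwa5b2*, *Trp53i11*, *Tecpr1*, *Hpcal1*, *Mtch1* and PISD. Their lowest log2 ratio over the other kept cells ran from 1.35 to 4.08. *Trp53i11*, whose name marks it as p53-inducible, stood at 61.2, 238 and 138 CPM with log2 ratios of 2.50, 4.38 and 4.43. Against *Chga/Chgb*-high cells, *Mfge8*, which encodes a secreted milk-fat-globule protein, was also among the 8 highest, at 71.1, 95.2 and 167 CPM and log2 ratios of 1.82, 1.66 and 1.63.

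The Notch ligand *Dll1* was higher in progenitors than in the other kept cells. DLL1 on a secretory precursor activates Notch in its neighbours, and HES1 is the repressor that Notch induces there. *Dll1* stood at 61.2, 105 and 24.4 CPM in progenitors and 21.4, 13.9 and 5.24 CPM in the other kept cells, a log2 ratio of 1.51 (0.95 to 2.02), 2.91 (2.23 to 3.52) and 2.22 (1.34 to 2.97). *Hes6*, a HES relative that opposes HES1, stood at 211, 257 and 375 CPM against 73.4, 102 and 174 CPM (log2 ratio 1.52, 1.34 and 1.10) and was seen in 89.7, 81.8 and 86.4% of progenitors. Both passed the 2-fold limit in all 3 libraries. *Hes1* itself stood at 43.4, 66.6 and 117 CPM against 86.6, 99.6 and 149.7 CPM, below the other kept cells in each library but not 2-fold.

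Of the 20 Notch genes only these 3 reached the floor. The ligand *Dll4* stood at 13.8, 38.1 and 19.2 CPM, the glycosyltransferase genes *Mfng* and *Lfng* at 15.8, 4.76 and 34.9 CPM and 29.6, 28.6 and 33.1 CPM, and the Notch target *Nrarp* at 3.95, 4.76 and 5.23 CPM against 14.3, 14.2 and 9.77 CPM in the other kept cells. *Mfng* was near 0 in the other kept cells (0.259, 0.382 and 0.729 CPM), but its *LApc* level in progenitors is 1 UMI.

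Among the genes of secretory fate, *Cbfa2t3* was higher in progenitors. It encodes a corepressor of the ETO family, whose members act with ATOH1 in the crypt, and stood at 86.9, 129 and 99.4 CPM against 27.7, 11.9 and 7.17 CPM (log2 ratio 1.65, 3.43 and 3.79). *Sox9* stood at 53.3, 61.9 and 90.7 CPM, near its level in the other kept cells (log2 ratio 0.02, -0.18 and 0.17), and it was the other of the 2 compared of 11 listed. *Atoh1*, the factor that opens the secretory lineage, was under the floor at 37.5, 4.76 and 6.97 CPM against 53.0, 34.9 and 11 CPM. *Spdef*, a factor of goblet and Paneth maturation, stood at 41.5, 14.3 and 12.2 CPM against 43.7, 23.9 and 10.4 CPM.

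Several genes that slow or stop the cell cycle had a higher summed level in progenitors than in the other kept cells. Of 8 compared, 5 were 2-fold or more higher in all 3 libraries (*Cdkn1a*, *Cdkn1c*, *Btg2*, *Gadd45a* and *Gadd45g*), and the list median log2 ratio was 1.57, 1.95 and 1.87. *Cdkn1a*, which encodes the CDK inhibitor p21, stood at 393, 590.2 and 472 CPM against 125, 191 and 149 CPM, a log2 ratio of 1.65 (1.44 to 1.85), 1.63 (1.36 to 1.88) and 1.66 (1.49 to 1.84). *Cdkn1c*, which encodes the related inhibitor p57, stood at 69.1, 228 and 152 CPM against 8.78, 29.0 and 28.1 CPM (log2 ratio 2.98, 2.98 and 2.43). Both inhibitors were thus higher than in the remaining epithelium in each library, whereas against *Chga/Chgb*-high cells their ratios were 0.05, 0.16 and 0.71 and 0.02, 0.80 and 1.06.

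*Gadd45a*, which encodes a growth-arrest protein induced by stress, stood at 188, 576 and 429 CPM in progenitors, 32.4, 44.1 and 19.7 CPM in the other kept cells and 57.7, 115 and 51.8 CPM in *Chga/Chgb*-high cells. Its log2 ratios were 2.53, 3.71 and 4.44 over the other kept cells and 1.70, 2.32 and 3.05 over *Chga/Chgb*-high cells. It was the 1 gene of this list that was called higher in progenitors than in the mature endocrine cells, and without the 16 members high in another type 3 were (*Gadd45a*, *Gadd45g* and *Btg2*). *Btg1*, *Ccnd1* and *Ccnd2* were compared and not called, with log2 ratios over the other kept cells of 0.36, -0.15 and 0.97, -0.30, -0.81 and -0.54 and -0.02, -0.21 and -0.66.

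None of 10 cell cycle genes compared was called against the other kept cells, with list medians of 0.16, -0.20 and -0.36. *Mki67*, the classical marker of dividing cells, stood at 94.8, 28.6 and 62.8 CPM in progenitors and 74.5, 67.1 and 88.7 CPM in the other kept cells. UMIs of *Mki67* or *Top2a* were detected in 66.7%, 30.3% and 43.9% of progenitors and in 45.8%, 30.1% and 58.6% of the other kept cells. Before thinning, the share was thus higher in WT progenitors and lower in *LApcL* progenitors. After thinning to equal depth the progenitor shares were 33.3% (19.1 to 50.2), 18.8% (7.21 to 36.4) and 23.1% (13.5 to 35.2). Those of the other kept cells were 28.2%, 21.6% and 34.6%, inside the progenitor interval in each library. Transcripts of dividing cells were therefore not absent from the progenitors. Dividing crypt cells were set apart by 3 or more UMIs of *Mki67* and *Top2a* together, no *Neurog3*, fewer than 5 *Chga* and *Chgb* UMIs and at most 1 UMI of the adenoma genes described below, which gave 2732, 1254 and 770 cells. These cells were chosen as dividing, so cell cycle genes had to be higher there than in the progenitors, and no count of them is given.

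Against the same crypt cells, 9 of 10 endocrine factors and 5 of 8 exit genes were called higher, with 85 of 2766 genes (3.07%) higher overall. The 8 highest were *Tubb3*, *Gfra3*, *Nkx2-2*, *Slc39a2*, *Insm1*, *Vwa5b2*, *Neurod1* and *Cdkn1c*. For *Cdkn1c* the log2 ratio over crypt cells was 4.76, 6.28 and 5.26 and for *Cdkn1a* it was 2.97, 3.34 and 2.86. Among the lowest was *Dmbt1*, a secreted scavenger-receptor gene, at -1.65, -1.76 and -1.76. The choice of dividing cells also bears on genes of cell-cycle exit in this comparison.

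Stem cell genes were for the most part near the level of the remaining epithelium. Of 14 listed, 5 were compared with the other kept cells and 1 was called, *Prom1*, which encodes the membrane protein CD133, at 103, 267 and 178 CPM against 48.2, 74.7 and 73.9 CPM (log2 ratio 1.09, 1.84 and 1.27). *Mex3a*, an RNA-binding protein gene of slowly cycling stem cells, was under the floor at 25.7, 28.6 and 33.1 CPM against 2.36, 7.19 and 10.7 CPM. Against the cycling crypt cells none of 5 was called, with list medians of -0.25, -0.11 and -0.18.

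Hormone transcripts were scarce in the progenitors. *Chga* and *Chgb* belong to the rule and are not counted. Against *Chga/Chgb*-high cells, 11 of 11 hormone genes compared were 2-fold or more lower in all 3 libraries, at medians of -6.69, -7.21 and -7.33. Over all genes in that comparison, 103 of 2817 (3.66%) were lower. The 2 classes were split by *Chga* and *Chgb*, and a hormone gene scarce in progenitors could reach the floor only through the other class. The count therefore describes the list and does not test it. Of 8 hormone genes compared with the other kept cells, which include the mature endocrine cells, 6 were lower. *Gip*, the incretin of K cells, stood at 77, 105 and 45.3 CPM against 20531, 48309 and 14764 CPM in *Chga/Chgb*-high cells. *Cck* stood at 59.2, 105 and 48.8 CPM against 6114, 15772 and 3852 CPM, and *Sct*, the secretin gene, at 128, 138 and 209 CPM against 9654, 14424 and 5905 CPM. *Afp*, named by the rule for genes outside the lists, had 0 UMIs in every progenitor against 553, 1035 and 469.9 CPM in *Chga/Chgb*-high cells.

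*Ghrl*, the ghrelin gene, was the exception by sum and came from few cells. It stood at 1094, 1228 and 105 CPM in progenitors, 262, 375 and 51.5 CPM in the other kept cells and 5239, 7912 and 1758 CPM in *Chga/Chgb*-high cells, and it was called higher than in the other kept cells. In WT 554 UMIs came from 11 cells, of which 2 gave 296 and 200 UMIs. In *LApc* 258 UMIs came from 6 cells, with 173 and 61 in the highest 2, and in *LApcL* 60 UMIs came from 7 cells, with 38 and 16. Without the members high in another type the levels were 190.4, 1046 and 39.1 CPM and the gene was no longer called. The *Ghrl* sum was therefore carried by single progenitors and not by the class.

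Granule and exocytosis genes were also mostly below the mature cells. Of 18 compared with *Chga/Chgb*-high cells, 15 were 2-fold or more lower in all 3 libraries, at medians of -3.95, -3.33 and -2.89. The split by *Chga* and *Chgb* and the floor bear on this count as on that of the hormone genes, so it too is a description. *Scg2*, a granin gene, had 0 UMIs in all progenitors against 305, 626 and 255 CPM. *Rimbp2*, an active-zone protein gene, was near the mature level at 31.6, 57.1 and 36.6 CPM (log2 ratio -0.09, -0.22 and -0.20). Against the other kept cells 2 of 3 genes compared were higher, *Ddc*, which encodes the decarboxylase of serotonin and dopamine synthesis, at 116, 138 and 101 CPM (log2 ratio 1.43, 1.21 and 1.93), and the complexin gene *Cplx2* at 17.8, 80.9 and 75.0 CPM (log2 ratio 1.98, 2.88 and 2.50). *Rab3d* had log2 ratios of -0.55, 1.31 and 1.24 and was not called.

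The progenitors differed among themselves along *Neurod1*. They were divided by their *Neurod1* count, which the rule did not use, into 74 cells without a UMI, 45 cells with 1 to 4 and 19 cells with 5 or more. All 3 libraries entered each bin (24, 17 and 33 cells, 10, 14 and 21 cells, and 5, 2 and 12 cells), and the highest bin holds under 20 cells. The median depth was 8002, 8003 and 6256 UMIs per cell in the 3 bins, so the highest *Neurod1* bin was not the deepest. The bins are an order of counts in separate cells, and values below are sums over the libraries given from the lowest to the highest bin.

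By summed level, CDK inhibitor genes stood higher where *Neurod1* was detected. *Cdkn1a* stood at 161 (132 to 194), 743 (666 to 828) and 1021 (863 to 1199) CPM in the 3 bins, and *Cdkn1c* at 30.2 (18.7 to 46.1), 229 (187 to 278) and 317 (232 to 423) CPM. *Gadd45a* stood at 251, 409.6 and 711 CPM. Within libraries, *Cdkn1a* was 159, 461 and 1436 CPM in WT, 119, 1263 and 446 CPM in *LApc*, where the highest bin is 2 cells, and 178, 812 and 862 CPM in *LApcL*. In each library the cells without *Neurod1* had the lowest *Cdkn1a* level. Cells within a bin were not alike. Of the 12 *LApcL* cells in the highest bin, some had 26, 19, 14, 11, 6 and 1 *Cdkn1a* UMIs and the others had 0. The counting intervals do not cover this spread between cells.

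Later factors of the cascade were also lowest in the cells without *Neurod1*. *Isl1* had no UMI in any of the 74 cells without *Neurod1* and stood at 0, 75.7 and 131 CPM, and within libraries at 0, 61.4 and 214 CPM in WT, 0, 191 and 223 CPM in *LApc* and 0, 35.3 and 78.4 CPM in *LApcL*. *Fev* was also at 0 in the first bin and stood at 0, 24.5 and 48.3 CPM. *Hmgn3* stood at 1.44, 42.3 and 166 CPM, *St18* at 5.75, 49.0 and 110.4 CPM and *Myt1* at 4.31, 49.0 and 69.0 CPM. *Nkx2-2* and *Sox4*, both higher in progenitors than in mature cells, were present from the first bin on, at 77.6, 145 and 235 CPM and 1069, 772 and 993 CPM. *Insm1* stood at 121, 138 and 228 CPM.

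*Dll1* was highest in the cells without *Neurod1*, at 76.1 (57.0 to 99.6), 24.5 (12.2 to 43.8) and 20.7 (4.27 to 60.5) CPM. Within libraries it stood at 98.3, 25.6 and 0 CPM in WT and 28.6, 17.6 and 22.4 CPM in *LApcL*, and in *LApc* at 154, 35.7 and 112 CPM with 2 cells in the highest bin. *Mki67* stood at 84.8, 55.6 and 41.4 CPM and the whole cell cycle list at 1103, 703 and 786 CPM. The granule list stood at 274, 732 and 1131 CPM, and its member *Cpe*, which encodes a prohormone-processing enzyme, at 4.31, 57.9 and 75.9 CPM. The hormone list stood at 273, 1905 and 1932 CPM, most of it *Ghrl* (15.8, 1469 and 1387 CPM). The Paneth sum was 15635, 78430 and 3367 CPM, with 34360 UMIs from the 10 WT cells of the middle bin, and its part in these levels was not tested.

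**Figure D4:**
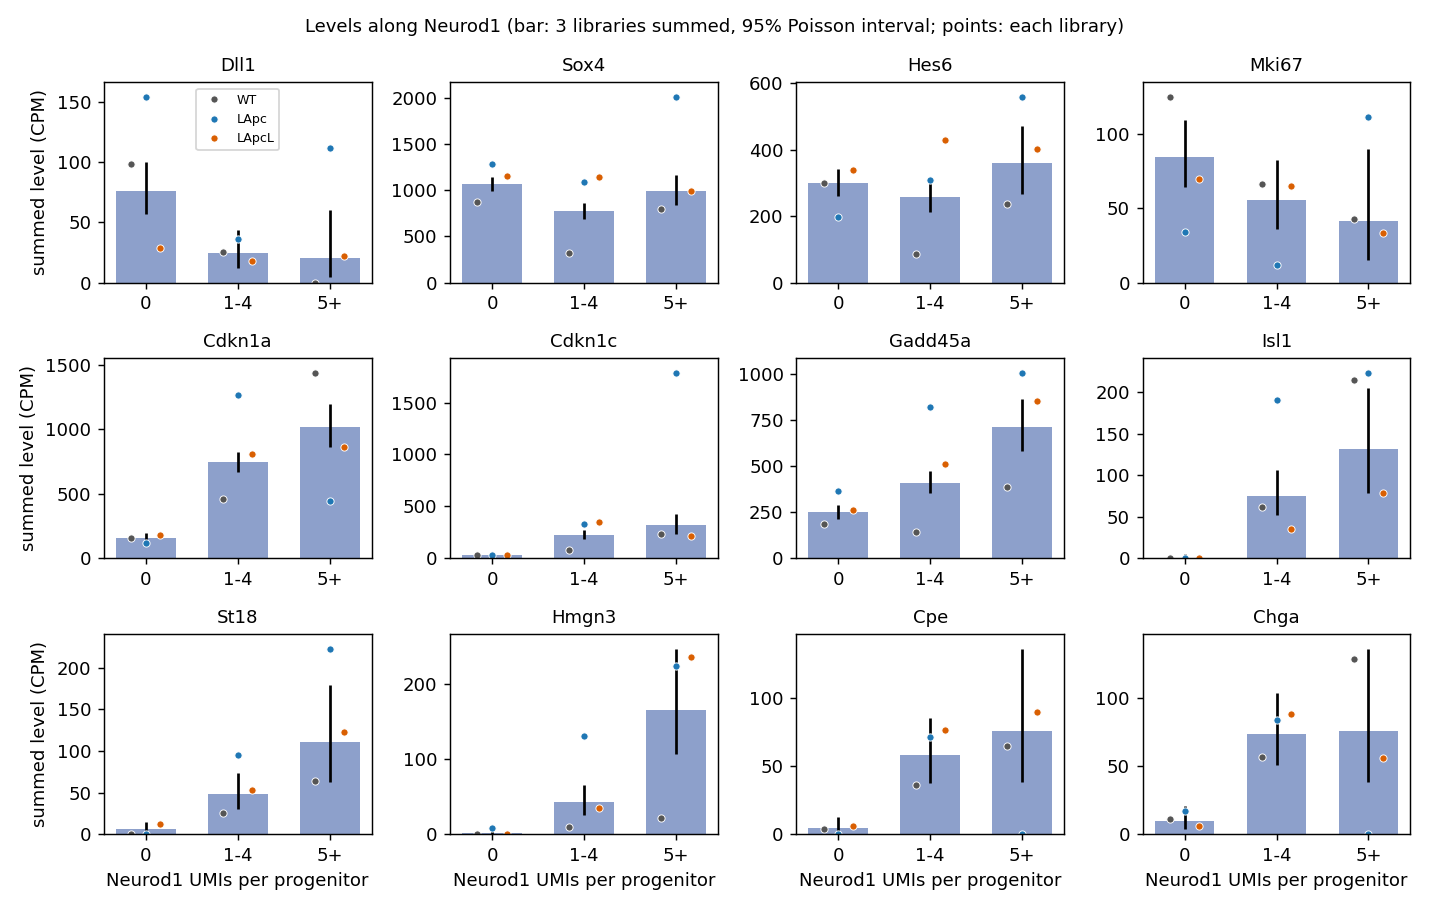
Summed level in CPM of 12 genes in progenitors with 0 (74 cells), 1 to 4 (45 cells) and 5 or more (19 cells) *Neurod1* UMIs. Bars sum the 3 libraries with a 95% Poisson interval and points show each library. *Cdkn1a*, *Cdkn1c*, *Isl1*, *St18*, *Hmgn3* and *Cpe* are lowest in the first bin and *Dll1* is highest there. *Chga* is limited by the rule.

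Progenitors of the *LApcL* library often carried adenoma transcripts. The adenoma list holds 10 genes of the Wnt-activated tumour programme (*Sox17*, *Msx1*, *Notum*, *Nkd1*, *Wif1*, *Dkk2*, *Dkk3*, *Lef1*, *Wnt6* and *Wnt10a*), and a cell was counted with 2 or more of their UMIs. This was so for 0 of 39 WT progenitors, which allows a share of up to 9.03%, for 4 of 33 *LApc* progenitors (12.1%, 3.40 to 28.2) and for 45 of 66 *LApcL* progenitors (68.2%, 55.6 to 79.1). The other kept cells gave 0.502%, 13.9% and 71.9%, *Chga/Chgb*-high cells 0.986%, 5.58% and 57.0%, and enterocyte-rich cells 0.160%, 2.34% and 20.6%. The *LApcL* progenitor share lay above that of the enterocyte-rich cells, and its place against the other kept cells depended on the limit. At 3 or more UMIs it was 43.9% against 65.7% of the other kept *LApcL* cells, at 10 or more 10.6% against 32.9%, and the median was 2 UMIs against 6. After thinning to 3000 UMIs the progenitor shares were 0%, 6.25% and 36.9%, those of the other kept cells 0.00881%, 11.3% and 47.0%, and the enterocyte-rich shares 0%, 1.54% and 8.30%.

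By summed level the list stood at 1.97, 71.4 and 420.2 CPM in progenitors against 3.82, 234 and 667 CPM in the other kept cells. *Sox17*, a factor induced in these adenomas, stood at 69.7 CPM in *LApcL* progenitors and 232 CPM in the other *LApcL* cells. The Wnt feedback inhibitors *Notum* and *Nkd1* stood at 54.0 and 101 CPM in *LApcL* progenitors against 77.3 and 103 CPM, and the homeobox gene *Msx1* at 174 against 243 CPM. Of the 3 adenoma genes compared with the other kept cells, none was called. *Nkd1* was thus near its level in the other *LApcL* cells and *Sox17* was lower. Sums over cells do not tell which progenitors descend from recombined stem cells.

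**Figure D5:**
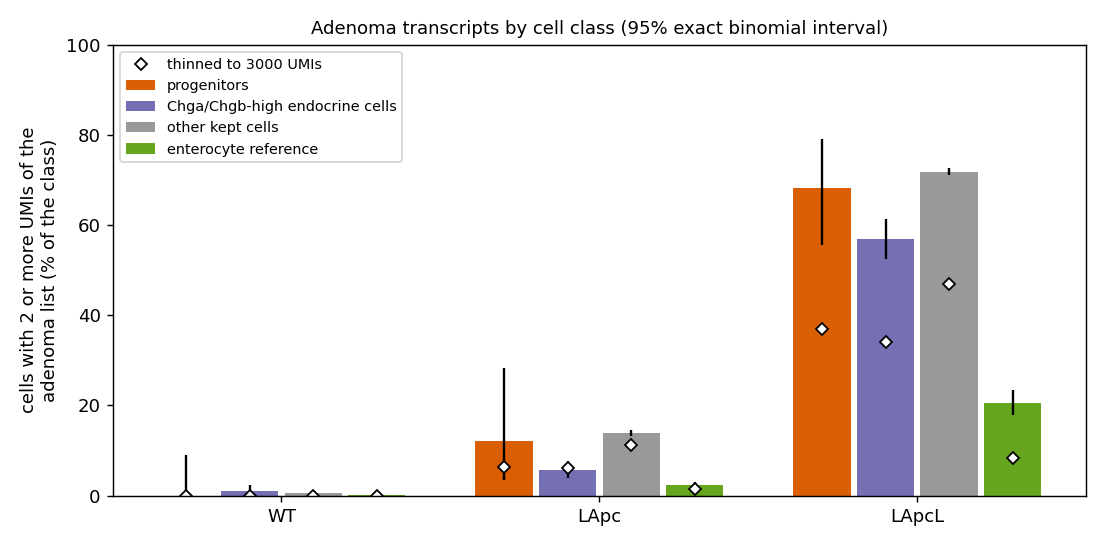
Share of cells with 2 or more UMIs of the 10 adenoma genes, in percent of each class, for progenitors, *Chga/Chgb*-high endocrine cells, other kept cells and enterocyte-rich reference cells of each library. Lines are 95% exact binomial intervals and diamonds are shares after thinning to 3000 UMIs. *LApcL* progenitors stand at 68.2%, between *Chga/Chgb*-high cells (57.0%) and other kept cells (71.9%), with enterocyte-rich cells at 20.6%.

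Within the *LApcL* library, the 45 progenitors with 2 or more adenoma UMIs were set beside the 21 with fewer. The division was made after the data had been seen, and the median depths were 8003 and 7490 UMIs. It does not separate presence from absence, because 56 of the 66 cells carried 1 or more adenoma UMIs and 29 carried 3 or more. Of 1319 genes with a mean of 100 CPM or more, the rule's and the adenoma genes left out, 29 (2.20%) were 2-fold or more higher and 45 (3.41%) lower in the 45 cells. *Neurod1* was 147 CPM in the 45 cells and 283 CPM in the 21 cells, a log2 ratio of -0.94 (-1.51 to -0.36). It was seen in 18 of 45 and 15 of 21 cells. *Cdkn1a* stood at 346 against 782 CPM (log2 ratio -1.17, interval -1.53 to -0.82), *Cdkn1c* at 113 against 247 CPM (log2 ratio -1.13, interval -1.77 to -0.48) and *Tox3* at 68.7 against 222 CPM (log2 ratio -1.69, interval -2.46 to -0.95). Without the 1 *LApcL* member high in goblet genes the *Cdkn1c* ratio was -0.82. Early factors were closer between the subsets, with log2 ratios of 0.12 (-0.69 to 0.99) for *Nkx2-2*, -0.37 (-1.07 to 0.36) for *Insm1* and 0.18 (-0.07 to 0.45) for *Sox4*.

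By summed level, the 45 cells were higher in Paneth genes and in interferon-induced Ifitm genes. *Lyz1*, the lysozyme of Paneth cells, stood at 2357 against 216 CPM (log2 ratio 3.44, interval 2.97 to 3.97), *Ang4* had a ratio of 2.63 (1.79 to 3.61) and *Mmp7*, which processes Paneth defensins, 1.95 (1.40 to 2.54). These 3 of 4 Paneth genes compared were called higher, also without the goblet-rich member. *Ifitm1* stood at 904 against 192 CPM (log2 ratio 2.23, interval 1.71 to 2.80) and *Ifitm3* at 1778 against 439 CPM. Of the 5 enterocyte genes compared, 3 were called lower in the 45 cells and 1 higher. *Fabp1*, a fatty-acid-binding protein of enterocytes, had -2.89 (-3.25 to -2.54) and *Rbp2* -2.40 (-2.86 to -1.96), whereas the apolipoprotein gene *Apoa4* had 1.5 (0.74 to 2.36) and *Apoa1* -0.11 (-0.41 to 0.20). Outside the lists, the antimicrobial lectin gene *Reg3b* had -2.28 (-2.50 to -2.07) and *Lypd8* -2.27 (-2.58 to -1.96). For *Zg16* of goblet cells the log2 ratio was -4.15 (-4.42 to -3.90) and -1.56 without the goblet-rich member.

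Between libraries, the progenitors were compared gene by gene where the mean of both libraries was 100 CPM or more, and comparisons with WT share the same WT cells. *LApc* over WT had 66 of 1162 genes (5.68%) 2-fold or more higher and 35 (3.01%) lower, *LApcL* over WT 83 of 1179 (7.04%) higher and 51 (4.33%) lower, and *LApcL* over *LApc* 29 of 1290 (2.25%) higher and 42 (3.26%) lower. The median log2 ratio of all genes compared was 0.28, 0.35 and 0.05, so differences from WT are read relative to that shift. With TMM scaling the calls higher and lower were 22 and 49, 27 and 77, and 36 and 41, and with ribosomal protein and mitochondrial genes left out of the total they were 217 and 35, 235 and 52, and 66 and 67. The share of calls that were higher was 65.3%, 61.9% and 40.8% as reported, 31.0%, 26.0% and 46.8% with TMM, and 86.1%, 81.9% and 49.6% without ribosomal and mitochondrial genes. Without members high in another type the calls were 34 and 32, 38 and 44, and 28 and 41.

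Of the endocrine factors, 1 of 5 compared was 2-fold higher in *LApc* than in WT (*Neurod1*, log2 ratio 1.08, with the same value of 1.08 in the other kept cells), none of 4 in *LApcL* over WT, and none of 6 in *LApcL* over *LApc*. The list median was 0.95 for *LApc* over WT, 0.55 for *LApcL* over WT and -0.45 for *LApcL* over *LApc*, or 0.55, 0.28 and -0.35 without members high in another type. Before scaling, the 5 factors compared between *LApc* and WT all had counting intervals above 0. Their log2 ratios were 0.96 for *Tox3*, 0.95 for *Insm1*, 0.92 for *Sox4* and 0.84 for *Nkx2-2* beside that of *Neurod1*. In the other kept cells those 4 had 0.41, 0.87, 1.00 and 0.53. The lower limits of *Insm1* (0.35) and *Nkx2-2* (0.18) lie under the TMM shift of 0.44, and that of *Neurod1* (0.46) lies just above it. The exit genes had 4 of 7 higher in each comparison with WT, at list medians of 1.45 and 1.13, or 0.93 and 0.56 without members high in another type. *Cdkn1c* had log2 ratios of 1.73 for *LApc* and 1.13 for *LApcL* over WT, but the other kept cells had 1.72 and 1.68. *Gadd45a* had 1.62 and 1.19 over WT against 0.44 and -0.72 in the other kept cells, and 0.93 for *LApc* without members high in another type, which is short of 2-fold. TMM scaling lowers every log2 ratio over WT by 0.44 for *LApc* and 0.42 for *LApcL*, which leaves *Gadd45a* and *Cdkn1c* above 0 and their *LApcL* values under 2-fold. The *Gadd45a* difference was thus larger in progenitors than in the pooled other kept cells, and no test of it was possible. In *Chga/Chgb*-high cells *Gadd45a* stood at 57.7, 115 and 51.8 CPM. A higher level in *LApc* than in WT was therefore not particular to progenitors, whereas *LApcL* was not above WT in those cells.

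The largest differences between *LApcL* and WT progenitors that did not rest on Paneth genes were also found in the epithelium around them. *Ifitm1* had 400 UMIs in *LApcL* progenitors and 0 in WT, a log2 ratio of 6.88 with 3 counts set for the 0. The lower limit of its counting interval was 6.57. Without members high in another type the ratio was 6.11, and in the other kept cells it was 10.93. *S100a6*, a calcium-binding protein gene of immature and tumour epithelium, stood at 1986 CPM in *LApcL* and 98.7 CPM in WT progenitors, a log2 ratio of 4.33 (3.92 to 4.77) against 2.48 in the other kept cells. *S100g* and *Ifitm3* had ratios of 3.18 (2.66 to 3.75) and 2.66 (2.38 to 2.96), and 3.83 and 3.96 in the other kept cells. In the other kept cells *Ifitm1* and *Ifitm3* were also higher in *LApc* (359.7 and 777 CPM) than in WT (0.467 and 133 CPM).

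For *LApc* over WT the highest were *Gm8730* (4.29, interval 3.95 to 4.64), a ribosomal-protein-like gene whose reads may be split with near-identical copies, *S100a6* (2.21, interval 1.70 to 2.73), *Marcksl1* (1.71, interval 1.29 to 2.13), *Rbp2* (1.62, interval 1.3 to 1.94) and *Gadd45a*. The lowest were Paneth genes, which rest on the 3 WT cells and share near-identical sequence with one another. *Defa21* had a log2 ratio of -7.23 (-7.79 to -6.72) for *LApc* over WT and -1.91 without members high in another type, and *Defa22* -7.89 (-8.37 to -7.45) and -2.81 for *LApcL* over WT.

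*LApcL* and *LApc* progenitors differed most in *Lyz1*, at 1736 against 133 CPM. The log2 ratio was 3.70 (3.16 to 4.30), 3.68 without members high in another type and 0.91 in the other kept cells. *Lyz1* was detected in 51 of 66 *LApcL* and 12 of 33 *LApc* progenitors, and a single *LApcL* cell held 182 of the 996 UMIs. The highest Paneth-list share of an *LApcL* member was 3.97%, under the 5% limit. The ratio of 3.68 therefore leaves out no *LApcL* cell for its Paneth genes. *Chga/Chgb*-high cells had 1763, 179.5 and 574 CPM of *Lyz1*. In WT progenitors the level was 2894 CPM, and 156 CPM without members high in another type. Goblet genes were lower in *LApcL* than in *LApc* progenitors, with log2 ratios of -2.96 (-3.24 to -2.69) for *Agr2* and -2.01 (-2.12 to -1.90) for *Zg16*, or -1.84 and -1.12 without members high in another type, and -1.45 and -2.55 in the other kept cells. *Guca2a*, which encodes guanylin, had -2.06 (-2.42 to -1.71), and *Ghrl*, carried by few cells, -3.55 (-3.98 to -3.14).

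Against the other kept cells, 2 of 8 goblet genes, none of 8 Paneth genes and 1 of 8 enterocyte genes were called lower in progenitors. Without members high in another type, 7 of 8 goblet, 5 of 8 Paneth and 1 of 8 enterocyte genes were called lower. The summed goblet level of progenitors was 28927, 29749 and 8203 CPM, and 11263, 12460 and 5400 CPM without members high in another type. The Paneth sum was 86096, 2313 and 4369 CPM, and 4250, 2113 and 4427 CPM without them, so that these members set most of the Paneth level in WT and hardly any of it in *LApc* and *LApcL*. The members left out were chosen by these same genes, so the differences between the sums and between the counts are no finding. Of the endocrine factors, 9 of 10 were called with and without them. Their median log2 ratio was 3.38, 3.41 and 3.74 with these members and 3.81, 3.37 and 3.71 without them.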

How the data were processed

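Small-intestinal EpCAM+ cells of 1 WT, 1 *LApc* and 1 *LApcL* sample were profiled by 10x Genomics 3′ single-cell RNA sequencing. The authors deposited raw UMI counts per gene and barcode for 27998 genes, made with Cell Ranger 2.1.1 on mm10 (GRCm38), and these were used as deposited. The submitters' processing notes name the tool and build. The methods name v2 or v3 chemistry, and which library used which was not given in the sources used here, so chemistry and genotype cannot be told apart in ratios between libraries. The libraries hold 140181087, 79696291 and 191509615 UMIs in 11453, 13214 and 17388 barcodes.

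Barcodes with fewer than 500 genes or more than 20% mitochondrial UMIs were left out, and none of those left out met the *Neurog3* and *Chga/Chgb* limits. Counts were summed per library and class and scaled to CPM. Intervals at 95% are exact Poisson for levels, exact conditional binomial for ratios and Clopper-Pearson for shares, and a sum of 0 was set to 3 counts for a bound. Since PCR, capture and animals also vary, they cover counting error only. With 1 library per genotype no p-value was computed. Genes were compared at 50 CPM or more between classes and 100 CPM or more between libraries, and the limit for a call was 2-fold. To compare shares across depths, cells were thinned at random (seed 11) to 3000 UMIs. The enterocyte-rich reference cells had 2% or more of their UMIs from the enterocyte list.

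Doublets were scored with Scrublet in scanpy 1.11.5. Its automatic threshold marked 1049, 0 and 0 cells, so the highest scores up to the expected doublet rate of 9.16%, 10.6% and 13.9% were marked instead, 1044, 1148 and 2361 cells, and kept in the results. The 15 gene lists hold 212 genes, of which 211 were found. Outside the lists, the text names the 15 genes whose lowest ratio over the other kept cells was largest, the 8 highest and 8 lowest against each comparison class, and the 5 highest and 5 lowest per pair of libraries, apart from a few genes that are not reported here. The members and lists were chosen with earlier results of these data known. The scripts (python 3.11.15, numpy 2.4.6, pandas 2.3.3, scipy 1.17.1) were tested on simulated data. Alternatives covered the limits of the rule, depth, doublets, scaling, floors and cell weights. Promoters come from RefSeq (GRCm38.p6).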

Additional observations from a re-analysis of the deposited data

How the results depend on the processing

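The share ratios between libraries stayed within their counting intervals under all 10 alternatives each, but the interval itself excluded 0 for *LApcL* over *LApc* with a *Neurog3* limit of 1 UMI (0.52) and for *LApcL* over WT without members high in another type (0.69). The 70 genes higher in progenitors than in the other kept cells became 30 with a *Neurog3* limit of 1 UMI, 136 and 12 with floors of 20 and 200 CPM, and 111 with each member weighted equally. The 41 lower genes became 13 with a *Neurog3* limit of 1 UMI, 63 with a limit of 3 UMIs, 66 without members high in another type, 73 and 14 with floors of 20 and 200 CPM, 83 with equal weights and 25 without members that carry adenoma transcripts. With a floor of 200 CPM the genes apart between libraries numbered 45 in place of 101 (*LApc* and WT), 63 in place of 134 (*LApcL* and WT) and 36 in place of 71 (*LApcL* and *LApc*). Without ribosomal protein and mitochondrial genes in the total they numbered 252, 287 and 133, and without members high in another type 66 for *LApc* and WT and 82 for *LApcL* and WT. The share of *LApc* progenitors with adenoma transcripts was 3.03% at 3 UMIs in place of 12.1%, and that of *LApcL* progenitors 84.8% at 1 UMI, 43.9% at 3 UMIs and 36.9% after thinning, in place of 68.2%. The alternatives without shared barcodes, without members high in another type and without members that carry adenoma transcripts were chosen after seeing the data. Fewer counts per class limit every value, and *LApc*, with 210093 member UMIs, is the least precise. No paired analysis was possible because each genotype has 1 library.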
